A study of Mus musculus with 6 samples.

Results

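The genes of the translation initiation factors were examined in maps of H3K27ac, the acetylation of histone H3 at lysine 27 that is found at active promoters and enhancers, made from bone marrow hematopoietic stem cells of mice. The members were the protein-coding genes of the RefSeq GRCm38 table whose symbols begin with Eif and a digit from 1 to 6, without the kinases Eif2ak1 to Eif2ak4 and without Eif4enif1. They numbered 51 of 21887 genes. CUT&RUN, in which a nuclease bound to an antibody cuts out the DNA carrying a mark, was run on 3 libraries with wild-type Ppp2ca and on 3 from Ppp2ca deficient animals, called knockout here; Ppp2ca encodes a catalytic subunit of protein phosphatase 2A. The sources used here give no strain, age or sex, and do not say how or in which cells Ppp2ca was removed. The series text names 3 mice per genotype, but no label ties a library to an animal, so p-values measure only the spread between these libraries, which may be partly technical. Values for 3 libraries of a genotype are always listed in the order of replicates 1, 2 and 3, wild type first. Fewer cells carrying the mark and less of the mark per cell cannot be told apart in such bulk libraries.

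Translation initiation loads the small ribosomal subunit with the initiator tRNA, brings it to the capped end of an mRNA and finds the start codon. Factor eIF2 carries the tRNA in a ternary complex with GTP, and eIF2B recharges eIF2 with GTP. The large eIF3 complex holds the small subunit, while eIF4E binds the cap, eIF4G is the scaffold and eIF4A the helicase of the cap-binding complex. The 4E-binding proteins, of which Eif4ebp1 encodes the best studied, block eIF4E until mTORC1 phosphorylates them. Hematopoietic stem cells are known for a low rate of protein synthesis compared with the progenitors they give rise to.

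The promoters of Eif4e and Eif2d are shown because the results at these genes turn on where their starts lie, and that of Eif5a2 because the gene had no peak although its promoter is rich in the motifs searched. Each sequence runs from 250 bases before to 50 bases after an annotated start and comes from RefSeq, build GRCm38.p6. Eif4e has 2 annotated starts, at chr3:138525941-138526240 (plus strand, upstream start) and chr3:138527018-138527317 (plus strand, downstream start). Eif2d lies at chr1:131152957-131153256 (plus strand) and Eif5a2 at chr3:28781027-28781326 (plus strand). Capitals mark matches, on either strand, to the E-box CACGTG, the ETS factor core CCGGAAG, the GC box core GGGCGG, the CCAAT box, the TATA box read as TATAAA, the NRF1 core CATGCGC and the YY1 core ATGGCGG, a list drawn up after the peaks had been examined.
Eif4e upstream start: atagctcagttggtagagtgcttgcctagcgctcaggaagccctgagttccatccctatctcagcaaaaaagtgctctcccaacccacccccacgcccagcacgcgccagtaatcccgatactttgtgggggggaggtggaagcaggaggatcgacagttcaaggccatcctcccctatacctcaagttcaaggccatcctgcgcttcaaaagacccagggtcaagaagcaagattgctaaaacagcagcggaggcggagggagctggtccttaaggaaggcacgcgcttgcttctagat
Eif4e downstream start: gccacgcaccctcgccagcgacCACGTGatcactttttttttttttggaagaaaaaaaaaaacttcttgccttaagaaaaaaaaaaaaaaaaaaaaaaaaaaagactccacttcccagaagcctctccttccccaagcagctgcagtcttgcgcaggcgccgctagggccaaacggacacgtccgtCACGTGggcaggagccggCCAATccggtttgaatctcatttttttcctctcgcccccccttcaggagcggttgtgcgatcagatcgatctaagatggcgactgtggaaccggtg
Eif2d: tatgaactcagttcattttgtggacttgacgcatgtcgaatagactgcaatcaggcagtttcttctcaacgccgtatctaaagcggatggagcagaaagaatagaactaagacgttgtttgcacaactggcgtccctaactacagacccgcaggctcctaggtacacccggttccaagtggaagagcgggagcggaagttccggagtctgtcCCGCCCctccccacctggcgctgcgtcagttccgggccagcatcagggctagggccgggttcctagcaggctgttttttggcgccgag
Eif5a2: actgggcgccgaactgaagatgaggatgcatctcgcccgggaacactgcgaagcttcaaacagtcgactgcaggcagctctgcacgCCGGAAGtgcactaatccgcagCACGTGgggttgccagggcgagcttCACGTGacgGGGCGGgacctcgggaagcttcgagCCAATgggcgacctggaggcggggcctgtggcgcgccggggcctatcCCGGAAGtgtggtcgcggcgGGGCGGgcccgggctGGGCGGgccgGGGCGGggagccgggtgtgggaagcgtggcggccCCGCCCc
The downstream promoter of Eif4e holds 2 E-boxes, to which MYC family factors are known to bind, and 1 CCAAT box, whereas the upstream promoter holds no match. The Eif5a2 window holds 10 matches, 2 of them E-boxes.

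A gene counted as marked in a library if a peak touched a window reaching 1000 bp to each side of its 2 ends, and its gene-end coverage was the number of bp of these windows that lay under peaks. Of the 51 members, the wild-type libraries marked 35, 30 and 34 and the knockout libraries 42, 43 and 45. The means were 33 ± 2.65 (SD, n = 3) and 43.3 ± 1.53 (SD, n = 3), or 64.7% and 85% of the members. Over all protein-coding genes the same means were 27.5% and 42%. The ratio of knockout to wild type was 1.31 for the members and 1.53 for all genes. All 3 knockout libraries marked 41 members (80.4%, against 36.2% of all genes) and all 3 wild-type libraries 22 (43.1%, against 17.2%).

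The peak lists differed in size, and every result is to be read beside these sizes. The lists held 21917 to 29945 peaks in wild-type and 34016 to 50453 in knockout libraries, and covered 7.25 to 9.60 Mb against 14.5 to 22.7 Mb. The number of fragments at each summit was solved from the fold and p-value of the peak. Over the members' best peaks the median was 7, 8 and 7 fragments in wild-type and 21.5, 13 and 22 in knockout libraries. The commonest background was 0.498 to 0.584 fragments per 200 bp in wild-type and 0.465 to 0.827 in knockout libraries. The part of list size and depth in the differences was not tested. Of 14 stem and progenitor markers, 5 to 6 were marked in wild-type and 4 to 6 in knockout libraries. Runx1, Tal1, Etv6 and Lyl1 were marked in all 6 libraries, while Cd34, Slamf1, Mecom, Hlf, Erg and Gata2 were at 0 in every library. Fewer knockout than wild-type libraries marked 3 of these genes, Kit (200, 244 and 0 bp against 420, 0 and 0 bp), Fli1 (0, 0 and 188 bp against 0 in all) and Meis1 (0, 0 and 200 bp against 0 in all). Procr had 200 bp in knockout replicate 1 alone. The summed coverage of the 14 was 2560 to 3124 bp in the wild type and 2838 to 4755 bp in the knockout. Of 5 B cell markers, 0 to 1 were marked in wild-type and 0 to 3 in knockout libraries (sums of 0 to 256 and 0 to 1448 bp), with Pax5 and Ms4a1 at 0 throughout. Of 5 T and NK cell markers, 1 and 2 to 3 were marked (256 to 1120 and 1473 to 1885 bp), with Cd3e and Cd2 at 0. Of 5 erythroid markers, 2 and 3 to 4 were marked (727 to 1019 and 2581 to 3696 bp), with Gata1 at 0. Of 6 myeloid markers, 1 to 3 and 3 to 5 were marked (319 to 1000 and 1150 to 2354 bp), with Elane at 0. Of 5 markers of endothelium and stroma, 1 and 2 were marked (302 to 439 and 793 to 1800 bp), with Cdh5, Lepr and Cxcl12 at 0. Cd3d, Klf1, Csf1r and Pecam1 were marked in all 6 libraries. The part of other cell types in the results was not tested.

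Marked in all 6 libraries were 22 members, a share of 43.1% against 17.0% of all genes. Marked in no library were 6 members, Eif2s3y, Eif3j2, Eif4a3l1, Eif4e3, Eif4ebp3 and Eif5a2, against 49.3% of all genes. Eif2s3y is the Y-linked copy of the eIF2 gamma subunit gene, and the 5 other Y-linked genes examined (Ddx3y, Uty, Kdm5d, Usp9y and Zfy1) were also at 0 in all 6 libraries. Its X-linked counterpart Eif2s3x was marked in 2 wild-type and 3 knockout libraries. The members' best gene-end peaks ranked high within their own lists, where a percentile of 0 is the best peak. Their median percentile was 12.5 to 14.8 in wild-type and 4.96 to 10.2 in knockout libraries, against 20 to 28.8 and 12.7 to 17.8 over all marked genes.

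**Figure D1:**
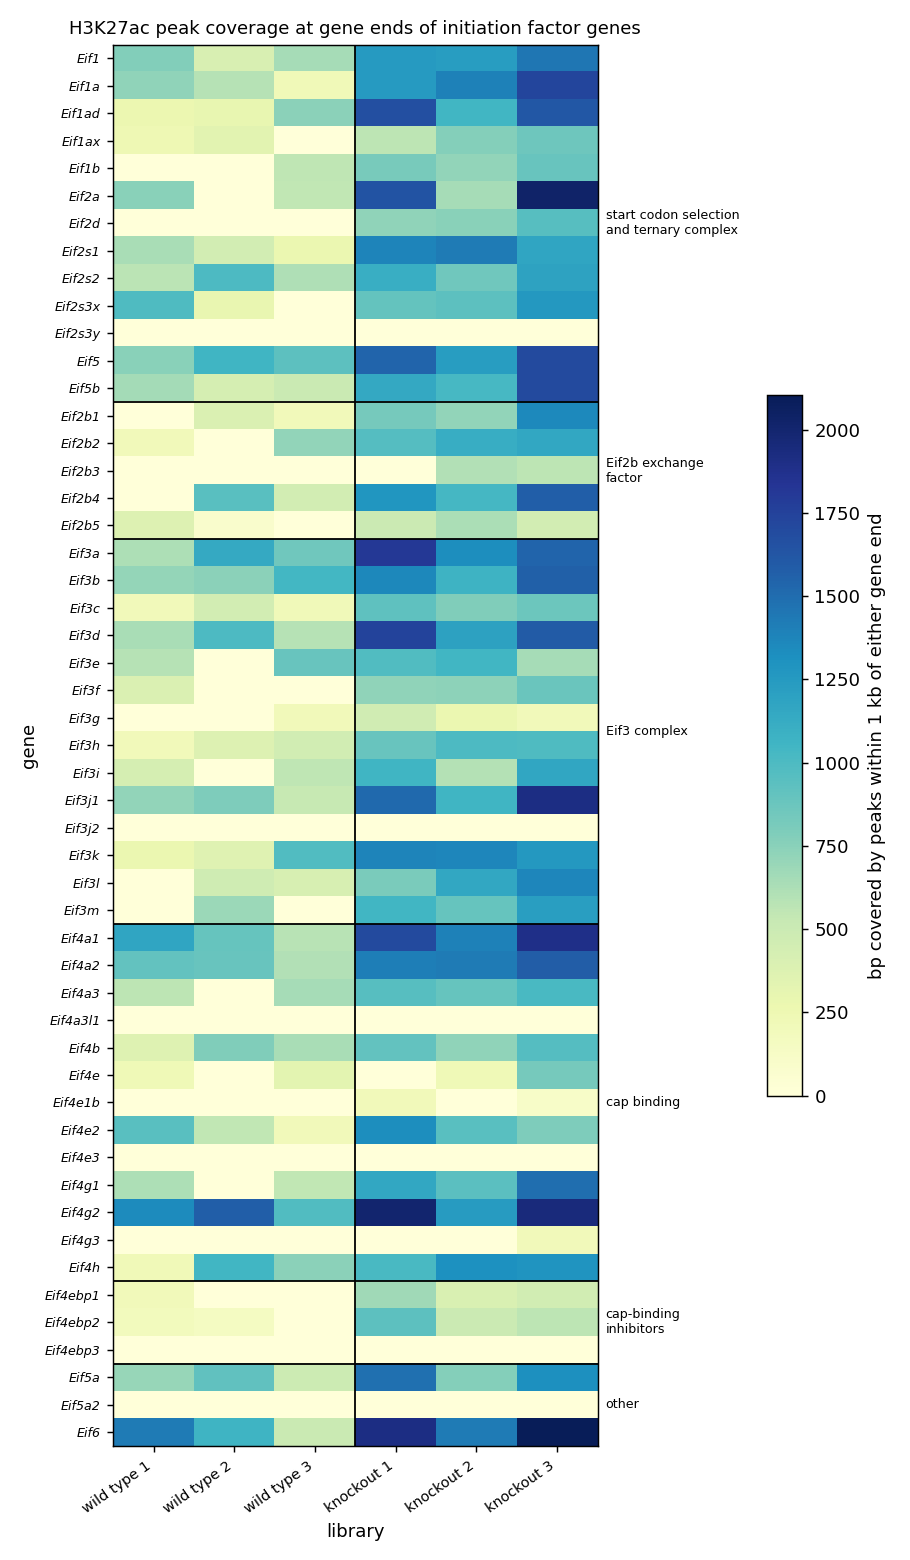
Gene-end coverage of the 51 initiation factor genes (rows, grouped by role) in the 6 libraries (columns); color gives the bp covered by peaks within 1000 bp of either gene end. The knockout columns are darker for most genes, and 6 genes are at 0 throughout.

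Mean gene-end coverage was higher in the knockout for all 45 members that were marked in any library. The same share was not counted over all genes, and the knockout lists covered more of the genome. In 31 of 51 members (60.8%) every knockout library had more coverage than every wild-type library, against 25.6% of all genes, and the reverse order occurred in 0 members and 0.0183% of all genes. Since many genes of the table carried no peak, the genes marked in all 6 libraries are a closer background. Among them the order held for 15 of 22 members (68.2%) and 66.5% of all such genes, shares that lie close together. Among these 22 members the median coverage was 674 bp in the wild type and 1335 bp in the knockout, with a median ratio of 1.86. Over all 3713 genes marked in all 6 libraries the medians were 578 and 1148 bp and the median ratio 1.9. Among genes marked in any wild-type library the order held for 30 of 41 members (73.2%) and 55.7% of all such genes. With 3 libraries against 3, a two-sided exact permutation test cannot give a p below 0.1, so no gene could be called at 0.05.

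**Figure D2:**
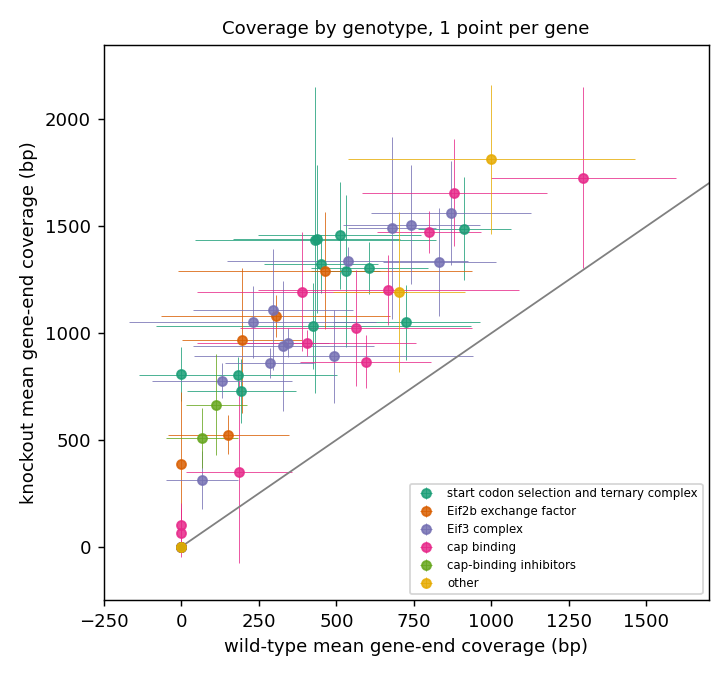
Mean gene-end coverage in bp in the wild type (horizontal) and the knockout (vertical) for each initiation factor gene, colored by role; bars are the SD over 3 libraries and the line marks equal means. All 45 marked genes lie above the line, a share that was not counted over all genes.

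Among the genes of start codon selection and the ternary complex, the wild-type libraries marked 10, 9 and 9 of 13 members and each knockout library 12. Eif2d, which encodes a factor that can place tRNA on the ribosome without GTP, was marked by all 3 knockout libraries and by none of the wild type. No other member had this pattern (1 of 51, or 1.96%, against 4.10% of all genes), and 0 members had the opposite one (0.00914% of all genes). Its coverage was 0 bp in every wild-type library and 724, 749 and 956 bp in the knockout (two-sided exact permutation p = 0.1). Of this coverage, 18 bp in knockout replicate 1 and 246 bp in knockout replicate 2 lay at the far gene end. The knockout peaks at the start end spanned the annotated start, with widths of 706, 503 and 956 bp and 9, 11 and 11 fragments at the summit. All 3 passed a q-value of 0.05. With windows of 2000 bp the exclusive call ended, because wild-type replicate 2 had a peak beyond the far end of Eif2d. That peak overlapped a peak of each knockout library. Exclusive members numbered 3 when wild-type replicate 1 or wild-type replicate 3 was left out, and 2 when wild-type replicate 2, knockout replicate 1 or knockout replicate 2 was left out. The shares of all genes were not counted for these omissions.

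Eif1ad, which encodes a protein with an eIF1A domain, had a coverage of 265, 300 and 747 bp in wild-type and 1668, 1044 and 1614 bp in knockout libraries. Eif1a, whose product promotes scanning, had 728, 587 and 219 bp in the wild type and 1247, 1391 and 1734 bp in the knockout. Eif2s1, the gene of the eIF2 alpha subunit that stress kinases phosphorylate, had 637, 444 and 272 bp against 1377, 1422 and 1170 bp. The groups did not overlap at these 3 genes, each with a two-sided exact permutation p of 0.1. Eif2s2, the gene of eIF2 beta, was the member of this group marked in all 6 libraries with the smallest difference. Its coverage was 570, 999 and 609 bp in the wild type and 1109, 852 and 1189 bp in the knockout, and the groups overlapped (two-sided exact permutation p = 0.2). Eif1ad shares its window with Banf1, Eif1a with Tmed7, Eif2s1 with Atp6v1d and Plek2, and Eif2s2 with Raly, so these peaks cannot be assigned to either gene. Of the other genes of the group, Eif1, Eif5, Eif5b (shared with Txndc9), Eif1ax and Eif1b also had all knockout values above the wild type. With Eif2d and the 3 genes above these make 9 of the 13 (69.2%, against 25.6% of all genes). Of the 7 marked in all 6 libraries, 6 had this order, against 66.5% of all such genes. Eif2a (shared with Serp1) and Eif2s3x overlapped. In all, 25 of the 51 members share a window with another protein-coding gene. Of the 26 that do not, 16 had more coverage in every knockout library. The share of all genes, many of which had no peak in any library, was 25.6%.

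The eIF2B exchange factor has 5 subunit genes, Eif2b1 to Eif2b5. The wild-type libraries marked 2, 3 and 3 of them and the knockout libraries 4, 5 and 5, and none was marked in all 6 libraries. At a q-value limit of 0.05 the numbers were 0, 0 and 0 against 3, 4 and 5, while the mean shares of all genes were 10.7% and 36.5%. Coverage ranged from 0 to 947 bp across wild-type and from 0 to 1572 bp across knockout libraries. The groups did not overlap at 4 of the 5 genes (80%, against 25.6% of all genes, of which 49.3% had no peak in any library). The exception was Eif2b3, with 0 bp in the wild type and 0, 605 and 560 bp in the knockout. Eif2b1 shares its window with Ddx55 and Gtf2h3, and Eif2b4 with Snx17, so the peaks at these genes cannot be assigned to either gene.

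The Eif3 complex, with 14 genes by symbol, had 10, 9 and 11 marked genes in the wild type and 13 in each knockout library. Eif3j2, a copy of Eif3j1, was at 0 in all 6 libraries, and the other 13 were marked in every knockout library. At 12 of the 14 genes the knockout values all lay above the wild-type values, against 25.6% of all genes. For the 7 members marked in all 6 libraries this held at 7, against 66.5% of such genes.

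The subunits eIF3a, b, c, g and i are among those conserved in budding yeast. Eif3a, the largest scaffold subunit (window shared with Nanos1), had 623, 1137 and 847 bp in the wild type and 1814, 1328 and 1540 bp in the knockout. Eif3b, which carries an RNA recognition motif, had 713, 741 and 1043 bp against 1359, 1070 and 1569 bp. Its peaks were the best ranked of the complex, with the weakest library at percentile 0.883 in the wild type and 0.839 in the knockout, and the authors' own fold enrichment was 6.07 to 9.2 and 6.39 to 6.94. Eif3c, the other large scaffold subunit, had 200, 450 and 206 bp against 928, 784 and 868 bp. Eif3g, the gene of an RNA-binding subunit, had the lowest coverage of the marked Eif3 genes in the knockout, with 0, 0 and 200 bp against 465, 273 and 202 bp, so its groups were separated by 2 bp. Eif3i, the gene of a WD-repeat subunit (shared with Tmem234), had 430, 0 and 557 bp against 1059, 593 and 1165 bp.

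Among the other subunits, Eif3d, known to bind the cap of selected mRNAs (shared with Foxred2), had 641, 997 and 588 bp in the wild type and 1738, 1196 and 1589 bp in the knockout. Eif3e, the gene also known as Int6, had 590, 0 and 884 bp against 985, 1045 and 642 bp and was the marked member of the complex whose groups overlapped (two-sided exact permutation p = 0.2). Eif3f had 392, 0 and 0 bp against 728, 734 and 873 bp. At these 3 genes the lowest wild-type value ranged from no peak to over 500 bp, while no knockout library lacked a peak. Eif3h had 200, 378 and 458 bp against 880, 1000 and 989 bp. Eif3m (shared with Ccdc73) had 0, 690 and 0 bp against 1049, 888 and 1221 bp. Eif3f and Eif3h encode the subunits with an MPN domain, and Eif3k, Eif3l and Eif3m others with a PCI domain. Eif3k (shared with Map4k1) had 272, 355 and 983 bp against 1380, 1371 and 1261 bp, and Eif3l had 0, 476 and 412 bp against 807, 1151 and 1368 bp. Eif3j1, a loosely bound subunit (shared with Spg11), had 721, 797 and 522 bp against 1515, 1055 and 1907 bp. For the 12 non-overlapping genes each two-sided exact permutation p was 0.1. Differences between the means of the marked Eif3 genes ran from 247 bp at Eif3g to 823 bp at Eif3m.

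**Figure D3:**
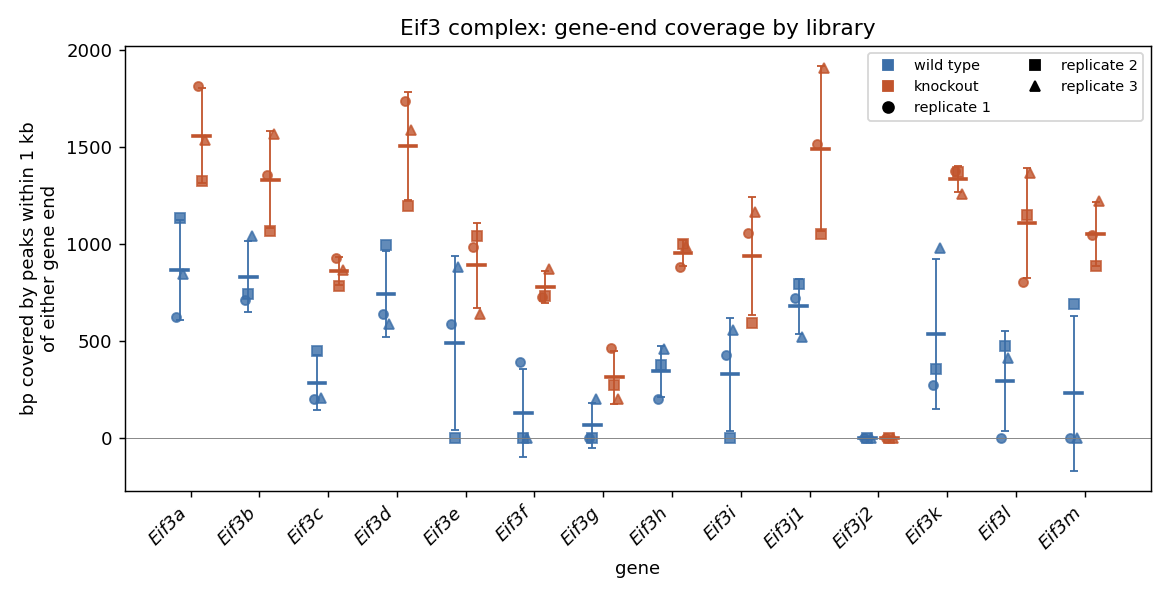
Gene-end coverage in bp of the 14 Eif3 genes in each library; symbols are replicates 1 to 3, thick lines the means and bars the SD (n = 3 per genotype). Knockout points lie above all wild-type points at 12 genes, overlap at Eif3e and are at 0 for Eif3j2.

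At Eif4e, the gene of the cap-binding protein (chromosome 3, 138526191 to 138559696, plus strand), the gene-end windows gave no separation between genotypes. Coverage was 224, 0 and 334 bp in wild-type and 0, 225 and 826 bp in knockout libraries. The means of 186 ± 170 bp and 350 ± 427 bp (SD, n = 3 each) differed by 164 bp (two-sided exact permutation p = 0.7), and without knockout replicate 3 the difference was -73.5 bp. The peaks lay over the downstream annotated start, 1077 bp inside the gene, at the edge of the window. In knockout replicate 1 the peak began 1002 bp from the gene end, just outside. Around the downstream start, a window added after the data had been seen, all 6 libraries were marked. There the coverage was 736, 352 and 549 bp in the wild type and 799, 1068 and 1714 bp in the knockout (two-sided exact permutation p = 0.1). The groups did not overlap, although wild-type replicate 1 and knockout replicate 1 were 63 bp apart. Summits of the peaks over this start held 6, 6 and 7 fragments in the wild type and 21, 14 and 22 in the knockout. Of the 2 E-boxes of the downstream promoter, the one at position -64 from the start lay under a peak in 5 libraries, all but wild-type replicate 2. The one at position -228 did so in 3, wild-type replicates 1 and 3 and knockout replicate 3.

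Eif4ebp1 (chromosome 8, 27260327 to 27275656) had a coverage of 200, 0 and 0 bp in wild-type and 670, 401 and 460 bp in knockout libraries. The means were 66.7 ± 115 bp and 510 ± 141 bp (SD, n = 3 each), a difference of 444 bp, and the groups did not overlap (two-sided exact permutation p = 0.1). The wild-type peak was 200 bp wide with 5 fragments at its summit. The best knockout peaks had 19, 8 and 16 fragments, and a q-value limit of 0.05 left peaks in 3 knockout and 0 wild-type libraries. Eif4ebp2 had 185, 154 and 0 bp against 935, 497 and 563 bp, and Eif4ebp3 was at 0 throughout.

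**Figure D4:**
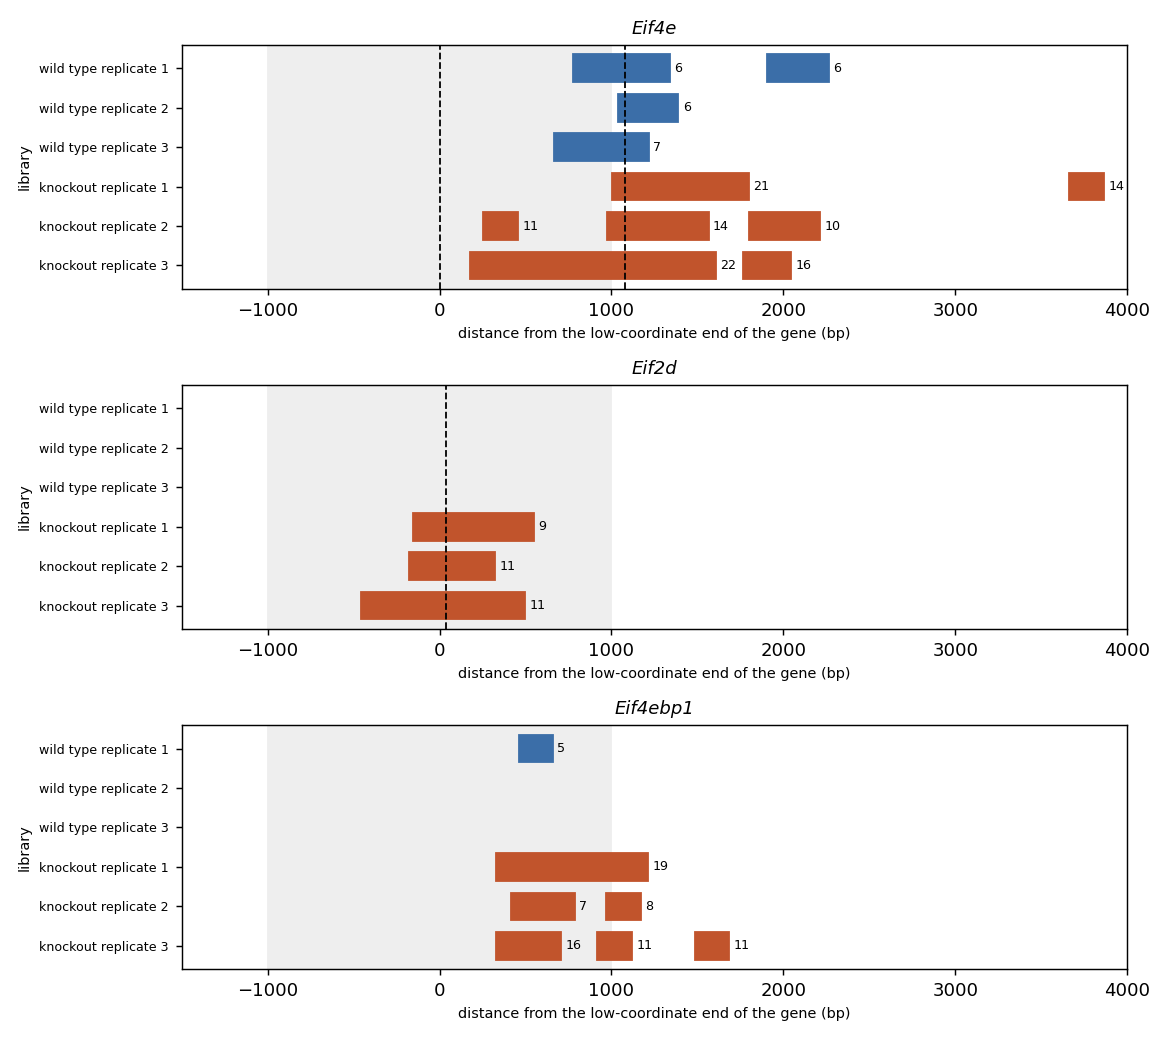
Peaks (bars) in each library near the low-coordinate end of Eif4e, Eif2d and Eif4ebp1; the horizontal axis is the distance in bp from that end, the grey band the 1000 bp window, dashed lines the annotated starts (none available for Eif4ebp1) and the number beside each bar the fragments at its summit. Eif4e has peaks over its downstream start in all 6 libraries, Eif2d only in the knockout libraries within the band, and Eif4ebp1 in 1 wild-type and 3 knockout libraries.

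Of the 13 genes of cap binding, 9, 6 and 9 were marked in the wild type and 9, 9 and 11 in the knockout, the smallest relative difference among the groups with more than 3 genes (ratio 1.21). Eif4a1, the main helicase gene (window shared with Cd68 and Senp3), had 1174, 891 and 577 bp against 1695, 1391 and 1887 bp, and Eif4a2 (shared with Rfc4) had 910, 883 and 604 bp against 1407, 1427 and 1586 bp. The groups did not overlap at either helicase gene (two-sided exact permutation p = 0.1 each). Eif4h, a helicase cofactor (shared with Lat2), had 215, 1049 and 741 bp against 1015, 1307 and 1289 bp, with overlap. Eif4b, another cofactor (shared with Tns2), had 367, 783 and 634 bp against 909, 725 and 964 bp, also with overlap and with the smallest difference of the cap-binding genes marked in all 6 libraries (two-sided exact permutation p = 0.2 for both genes). The overlap at Eif4b came from 200 bp at the far gene end in wild-type replicate 2. At its start end alone the coverage was 367, 583 and 634 bp against 909, 725 and 964 bp, without overlap (two-sided exact permutation p = 0.1). Eif4a3, the helicase gene of the exon junction complex, had 566, 0 and 649 bp against 954, 893 and 1012 bp, and its relative Eif4a3l1 was at 0 throughout. Eif4e2, which encodes a cap-binding repressor, overlapped, and Eif4e1b (shared with Tspan17) was marked in 2 knockout libraries and no wild-type library. With Eif4a1, Eif4a2, Eif4a3 and Eif4g1 the groups were apart at 4 of the 13 genes (30.8%), a share near the 25.6% of all genes. Of the 6 genes marked in all 6 libraries, 2 had all knockout values above the wild type, against 66.5% of all such genes.

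The scaffold genes differed among themselves. Eif4g2, named after its values were seen, encodes a scaffold that lacks the eIF4E binding site and had 1340, 1571 and 979 bp against 2001, 1240 and 1942 bp. It had the highest wild-type mean of all members, 1296.7 ± 298 bp (SD, n = 3), and the smallest ratio of the 22 members marked in all 6 libraries, 1.33. Eif4g1 (shared with Fam131a) had 621, 0 and 547 bp against 1158, 938 and 1488 bp. Eif4g3 had a gene-end peak in knockout replicate 3 alone, of 200 bp. Inside that gene, away from its ends, lay 5, 6 and 6 peaks in wild-type and 13, 9 and 9 in knockout libraries. The annotated starts of Eif4g3 lie 1676 and 1677 bp inside the gene of the table, and within 1000 bp of the first the coverage was 0, 514 and 209 bp against 852, 314 and 769 bp. Eif4e3, an eIF4E relative, had no gene-end peak but 2, 2 and 2 peaks inside the gene in the wild type and 7, 7 and 3 in the knockout. Peaks inside genes were not counted over all genes, and the knockout lists held more peaks.

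Eif6, whose product keeps the ribosomal subunits apart (shared with Mmp24 and BC029722), had 1425, 1068 and 506 bp against 1911, 1425 and 2104 bp, the lowest knockout value being equal to the highest wild-type value. Eif5a, the hypusine-carrying factor that helps elongation (shared with Gps2), had 702, 913 and 487 bp against 1483, 771 and 1323 bp, with overlap (two-sided exact permutation p = 0.2 for both genes). Eif5a has 6 annotated starts, of which the gene end is the outermost. Within 1000 bp of each of the other 5 the groups did not overlap (two-sided exact permutation p = 0.1 each). At the innermost of these starts the coverage was 887, 916 and 224 bp against 1894, 1638 and 1396 bp. Its paralog Eif5a2 was at 0 in all 6 libraries.

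When peaks were held to a q-value limit of 0.05, 19, 20 and 20 members were marked in the wild type and 40, 41 and 43 in the knockout, a ratio of 2.1 against 3.4 for all genes. All 3 knockout libraries then marked 38 members (74.5%, against 29.4% of all genes) and all 3 wild-type libraries 11 (21.6%, against 4.40%). At this threshold 9 members were knockout-only (17.6%, against 12.4% of all genes): Eif2d, Eif1a, Eif1b, Eif2b1, Eif2b2, Eif2b4, Eif3f, Eif3m and Eif4ebp1. Marked in all 6 libraries were 11 members, or 21.6% against 4.37% of all genes. Among the 22 members marked in all 6 libraries at any q-value, 1 (Eif1a) was knockout-only at this threshold, against 17.4% of such genes.

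Peaks lay at the start end of the genes. Of the 36 members longer than 4000 bp and with a known strand, 27, 25 and 26 were marked at the start end in the wild type and 32, 33 and 33 in the knockout, or 69.4% to 75% and 88.9% to 91.7%. Over all 14058 such genes these shares were 28.4% to 31.9% and 43.2% to 47.9%. The other end was marked at 0, 1 and 1 members against 5, 1 and 4. Over the same 14058 genes the other end was marked at 3.02% to 4.3% in wild-type and 5.68% to 8.39% in knockout libraries. The summit of the best peak lay within 500 bp of an annotated start in 78.6% to 89.3% of the marked members with an entry in wild-type and 74.3% to 86.1% in knockout libraries. Exactly at the start end, 35.9% to 43.6% of 39 members were covered by a peak in wild-type and 69.2% to 82.1% in knockout libraries. At 1000 bp downstream the shares were 7.69% to 15.4% and 20.5% to 28.2%, and at 1000 bp upstream 2.56% to 5.13% and 7.69% to 10.3%. Peaks thus reached further into the gene than away from it in both genotypes. The 3088 genes marked in all 6 libraries showed the same, with 12.7% to 14% downstream and 5.31% to 5.34% upstream in the wild type. Their knockout shares were 24.3% to 34.8% and 10.4% to 14.3%.

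**Figure D5:**
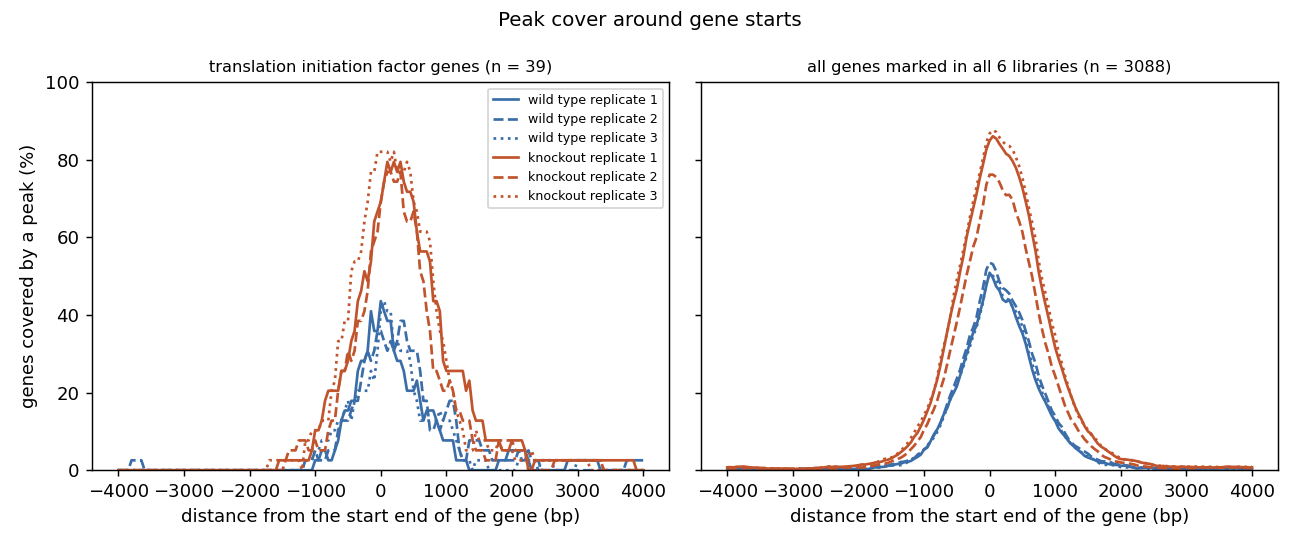
Share of genes (%) covered by a peak at each distance in bp from the start end, for the 39 initiation factor genes with a known strand (left) and 3088 genes marked in all 6 libraries (right, chosen for being marked); each line is 1 library. The knockout lines peak at 76.9% to 82.1% and the wild-type lines at 38.5% to 43.6% on the left.

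The motifs were searched in 1 promoter window per gene, at the start nearest to the gene end, for 39 members and 17492 protein-coding genes. GGGCGG was present in 29 members (74.4%) and 46.3% of all genes. CCGGAAG was present in 13 members (33.3%) against 11.9%, and CACGTG in 8 (20.5%) against 7.91%. These 8 leave out Eif4e and Eif5a, whose E-boxes lie at starts further inside the gene that were not searched. CATGCGC was present in 5 members (12.8%) against 4.88%. For CCAAT the shares were 28.2% and 39.2%, for TATAAA 10.3% and 13.3%, and for ATGGCGG 2.56% and 5.44%. The terminal oligopyrimidine start known from mRNAs of the translation machinery, read as a C at the annotated start followed by 4 pyrimidines on the strand of the gene, was found in 2 members, Eif2s3x and Eif3f (5.13%, against 2.17%). When the run could begin within 10 bases of the annotated start, the shares were 28.2% and 31.1%. Median GC content was 62.0% for the members and 56.3% for all genes, and the ratio of observed to expected CpG was 0.86 and 0.58. None of the motifs holds another of them, and a match describes letters only, not a bound site.

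Of 32 regulators and partners of initiation, 18, 20 and 21 were marked in the wild type and 29, 27 and 28 in the knockout. Eif4enif1 and Rptor, the gene of the mTORC1 scaffold that presents the 4E-binding proteins to the kinase, were the 2 knockout-only genes of this list (6.25%, against 4.10% of all genes). Mtor itself had 404, 602 and 0 bp against 1416, 881 and 1442 bp, and Ppp1r15a, which directs a phosphatase to eIF2 alpha, had 466, 200 and 48 bp against 1659, 1540 and 1657 bp. Coverage was higher in every knockout library at 19 of the 32 genes (59.4%, against 25.6% of all genes). Of the 13 regulators and partners marked in all 6 libraries, 9 had this order, against 66.5% of all such genes. Of 13 genes listed as elongation and release factors, 9, 8 and 8 were marked in the wild type and 11, 10 and 11 in the knockout. Eef1e1, an elongation factor gene by symbol only, was the knockout-only gene there (1 of 13, against 4.10% of all genes). At 8 of the 13 genes (61.5%, against 25.6% of all genes) the groups did not overlap. Of the 7 elongation and release factor genes marked in all 6 libraries, 7 had higher coverage in every knockout library, against 66.5% of all such genes.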

How the data were processed

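H3K27ac was profiled by CUT&RUN in 3 wild-type and 3 Ppp2ca-deficient libraries. The authors used GRCm38/mm10, MACS2, BWA, Trimmomatic, ChIPseeker, HOMER and deepTools, per the submitters' processing notes. The sources used here name no version, parameter or control library. There is 1 deposited narrowPeak list per library. Each peak has a deposited score, a deposited ratio (fold over background at the summit), a −log10 p-value and a −log10 q-value from the authors' caller and the position of its summit. These values are the authors' own and depend on each library's depth. Ranks and filters were applied inside each list. Fold ranges, summit fragments and counts at q-value limits are also set side by side between genotypes, without correction for depth.

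Gene ends came from the RefSeq table of GRCm38.p6, and strands, starts and sequences from its promoter table, in which 39 of the 51 members have an entry. Windows reached 1000 bp to either side of each gene end, and an overlap of 1 bp counted. Summit fragments were solved from fold and p-value (whole numbers within a tolerance of 0.002). Genotypes were compared by counts of libraries, by coverage and by a two-sided exact permutation test over 20 assignments. Calculations used Python 3.11.15, numpy 2.4.6, pandas 2.3.3 and scipy 1.17.1. Replicate numbers did not pair the libraries. Peaks planted at genes without any peak were used to check the counting rule only, not differences in depth or list size. A marker gene of the stem and progenitor list is not reported here.

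The members, role groups, lists and motifs were chosen with earlier results of these data known. Values in every library are given for Eif4e, Eif4ebp1, the Eif3 genes, members exclusive to a genotype and, per role group, up to 3 members marked in all 6 libraries with the largest and 1 with the smallest difference in mean coverage; those of Eif2b3, Eif4a3, Eif4ebp2, Eif4g1, Eif4g2, Eif4g3, Eif4e3, Mtor, Ppp1r15a and the windows at single annotated starts were chosen after being seen. Alternatives were q-value thresholds, equal list lengths, other windows and overlaps, start ends, the omission of each library and a replicate block.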

Additional observations from a re-analysis of the deposited data

How the results depend on the processing

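The difference in marked members, 10.3 between the means, was 21.7 at a q-value limit of 0.05, 24.3 with a −log10 q-value of at least 5, 7.33 at start ends alone and 7.67 around every annotated start (a setting chosen after seeing the data); the last 2 settings cover only the 39 members with an entry. Without single libraries it was 8.83 to 11.3. Knockout-only members, 1 in the main setting, numbered 9 and 11 under the 2 q-value settings, where 12.4% and 6.23% of all genes were knockout-only. They numbered 0 with windows of 2000 bp and 1 to 3 without single libraries, for which no share of all genes was counted. The 31 members with higher coverage in every knockout library became 16 at a −log10 q-value of at least 5, against 7.58% of all genes. They numbered 28 to 38 in the other settings. With every list reduced to its 21917 best peaks the number was 30, against 21.4% of all genes, and 1 member was knockout-only, against 2.91%. Genes marked in all 6 reduced lists are the closer background, since many genes carried no peak. Among them coverage was higher in every knockout library at 16 of 22 members and 64.5% of all such genes. At a −log10 q-value of at least 5, 1 member was marked in all 6 libraries, too few for such a share. The Eif3 difference of 3 members was 7 and 6 under the 2 q-value settings and 2.5 to 3.5 without single libraries. With lists of equal length it was 2.67. The Eif4e difference was -73.5 to 340 bp without single libraries, with the negative value without knockout replicate 3, and 633 bp with windows of 2000 bp. The Eif4ebp1 difference was 364 to 510 bp without single libraries and 128 bp with windows of 500 bp; no start-end value exists for it, as it has no entry. The cause of these changes was not tested. Replicate numbers are shared between the genotypes, but deviations of same-numbered libraries from their group means had correlations of -0.0015, -0.0168 and -0.0099 over 11087 genes. A replicate block cannot change a difference between means, so the differences of 10.3 members, 3 Eif3 members, 164 bp and 444 bp were not tested by it. The exact sign-flip p was 0.5 at Eif4e and 0.25 at Eif4ebp1, the smallest that 3 pairs allow. No call at 0.05 was possible with or without the block.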
